A study of Mus musculus with 12 samples.

Results

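The 10 cytosolic sulfotransferase genes followed here in mouse liver were Sult2a1, Sult2a2, Sult2a4, Sult2a5 and Sult2a6, Sult3a1, Sult1e1, Sult1a1, Sult1d1 and Sult1b1. They were taken by symbol from the count table, which held all 10 among its 22537 gene symbols, and 10 of 10 passed the filter on low counts that left 13968 genes. The mice were 12 adult C57BL/6 females, 6 months old, that had all eaten a high-fat diet over 13 weeks, with 3 mice and 1 poly-A RNA library each in 4 groups. The aryl hydrocarbon receptor (AHR) turns genes on when a ligand binds it, and ARNT is the protein it pairs with on DNA. The control groups carry the floxed allele of Ahr (AHR Flox) or of Arnt (ARNT Flox), and each has a counterpart labelled as its knockout (KO); which recombinase was used, and in which cells, is not stated in the labels. The comparisons ask which transcripts differ with loss of either protein, and the control lines were compared with each other as well.

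Cytosolic sulfotransferases move a sulfonate group from the donor PAPS onto a hydroxyl or amine group, which makes the acceptor more soluble in water and easier to excrete. The Sult2a enzymes act on hydroxysteroids such as DHEA and on bile acids, Sult3a1 acts on amines, Sult1e1 on estrogens, Sult1a1 on simple phenols, Sult1d1 on catecholamines and related compounds, and Sult1b1 on thyroid hormones. In mouse liver the Sult2a enzymes and Sult3a1 are known as female-predominant. The Sult2a genes are tandem copies of each other, so a short read can match more than 1 of them.

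Total counts ran from 23585909 to 33255004 per library (median 31194866), and levels are given in CPM, a gene's reads scaled to the same total in each library. A count of 0 allows up to 3 reads, or 0.0861 to 0.126 CPM. Ahr itself was at 80.3 to 94.8 CPM in the libraries labelled AHR KO and at 53.9 to 78.8 CPM in AHR Flox, so the summed count of the gene did not show the deletion; below, AHR KO names the libraries so labelled. Arnt was at 19.0 to 25.2 CPM in ARNT KO and at 47.8 to 52.5 CPM in ARNT Flox. All 10 hepatocyte markers were present in each group, with sums of 26431 to 41449 CPM. ARNT KO replicate 3 stood apart from its group: the chi-square per degree of freedom against the other 2 libraries was 230.3 and 248, against 23.6 between those 2 and 17.0 to 92.0 in the other groups, and its 10 cholangiocyte markers summed to 334 CPM where the other 11 libraries had 65.2 to 137 CPM. Results that rest on it are given with and without it.

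The Sult2a copies lie in 1 cluster of 631 kb on chromosome 7 (mm10, GRCm38.p6, positions from GENCODE): Sult2a5 at chr7:13623967-13670807 and Sult2a2 at chr7:13733505-13779636 on the plus strand, and Sult2a1 at chr7:13796246-13837409, Sult2a4 at chr7:13909676-13989607 and Sult2a6 at chr7:14222403-14254870 on the minus strand. Their coding sequences are close to each other: Sult2a1 and Sult2a2 were identical at 97.9% of 582 aligned bases, Sult2a1 and Sult2a4 at 94.0%, Sult2a1 and Sult2a5 at 94.85%, and Sult2a1 and Sult2a6 at 89.7% of 855 bases. The stretch from coding base 212 to 271 was picked, among gap-free stretches of 60 bases, for the most differences between its closest pair of copies. It is therefore not typical: over all aligned coding bases Sult2a2 differed from Sult2a1 at 12 of 582 and Sult2a6 at 88 of 855. Each line gives the 60 bases from 5′ to 3′, with capitals where a copy differs from Sult2a1.
Sult2a1: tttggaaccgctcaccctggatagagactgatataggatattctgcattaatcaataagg
Sult2a2: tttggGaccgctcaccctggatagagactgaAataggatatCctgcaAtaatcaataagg
Sult2a4: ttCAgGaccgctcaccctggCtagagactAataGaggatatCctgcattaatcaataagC
Sult2a5: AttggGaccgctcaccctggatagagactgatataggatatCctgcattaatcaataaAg
Sult2a6: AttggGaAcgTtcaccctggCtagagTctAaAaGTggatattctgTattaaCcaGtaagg
In this stretch Sult2a2 and Sult2a5 each differed from Sult2a1 at 4 bases, Sult2a4 at 8 and Sult2a6 at 13.

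The share of a transcript that a read could place is different for each copy. Of all stretches of 50 bases, 37.9% of those in Sult2a2 occurred in no GENCODE transcript of another gene, against 66.8% in Sult2a1, 65.5% in Sult2a5, 74.5% in Sult2a4 and 92.7% in Sult2a6. At 100 bases these shares were 65.4%, 88.6%, 83.4%, 94.2% and 100%. The read length and the way reads with several matches were counted are not stated in the labels or notes. Counts of single copies are therefore uncertain, and the sum of the 5 copies is given beside them. The other members were mostly distinct: 93.8% of 50-base stretches were unique in Sult3a1, 91.8% in Sult1a1 and 100% in Sult1e1, Sult1d1 and Sult1b1.

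Levels per length set Sult1a1, Sult2a2 and Sult2a1 above the others. As CPM per kb of exon, averaged over the 12 libraries, Sult1a1 was at 405 ± 75.7 (SD, n = 12), Sult2a2 at 319 ± 137 and Sult2a1 at 295 ± 136, and these 3 neighbours overlapped within their spread. Sult1d1 followed at 112 ± 24.1, then Sult2a5 at 19.4 ± 18.3, Sult3a1 at 19.4 ± 22.9 and Sult1b1 at 12.5 ± 2.53. Sult2a4 at 6.03 ± 10.3, Sult1e1 at 5.59 ± 5.15 and Sult2a6 at 3.89 ± 7.43 were lowest in this average. The order was not the same in each group: in AHR KO, Sult2a4 at 21.9 ± 9.08 and Sult2a6 at 15.5 ± 5.80 (SD, n = 3) had higher means than Sult1b1 at 14.9 ± 2.95, and Sult2a2 was at 174 ± 71.5 there and at 420.4 ± 103 in AHR Flox. In ARNT Flox, Sult3a1 at 0.819 ± 0.541 lay below Sult1e1 at 9.74 ± 5.77. For the last 3, and for Sult2a5 and Sult3a1, the SD was close to or above the mean, and their levels differed between groups as given below. The GENCODE model of Sult2a2 holds only 741 bases, and a shorter model gives a higher level per length.

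**Figure D1:**
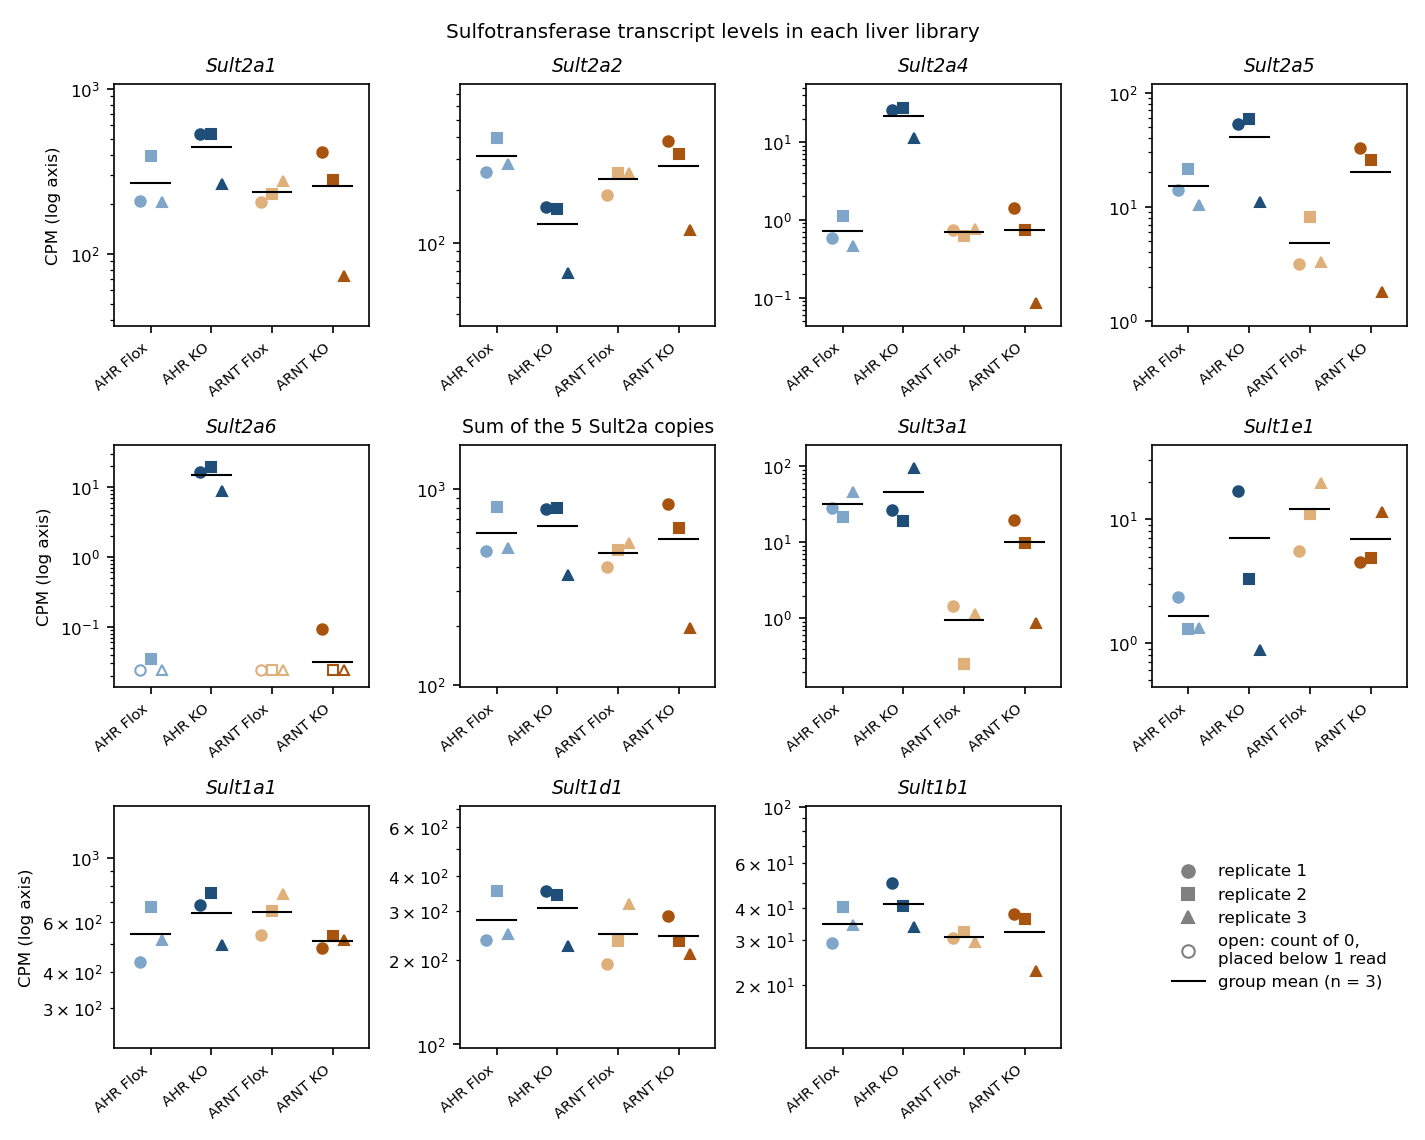
CPM of each sulfotransferase gene, and of the sum of the 5 Sult2a copies, in each of the 12 libraries on log axes; marker shapes give the replicate, lines the group mean (n = 3), and open markers a count of 0. Sult2a4 and Sult2a6 are high in the 3 AHR KO libraries and low in the other 9, Sult3a1 is lowest in ARNT Flox and ARNT KO replicate 3, and Sult1a1 stays between 435 and 756 CPM.

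In AHR KO against AHR Flox, 2 of the 10 genes passed the test, and both rose: Sult2a6 and Sult2a4. Over all genes tested 0.0788% were called in this comparison and 0.0501% were called higher. At an unadjusted p under 0.05 there were 4 of 10 members, against 11.9% of all genes. The median log2 change of the 10 members was 0.63, and that of all genes 0.01.

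Sult2a6 was at or near 0 outside AHR KO. It had 511, 608 and 280 reads in the 3 AHR KO libraries, which is 16.6, 19.7 and 8.78 CPM. The other 9 libraries together held 4 reads: 1 in AHR Flox replicate 2 and 3 in ARNT KO replicate 1, all at or under the limit of 3 reads. Pooled over the libraries, AHR KO had 1399 reads and AHR Flox 1 read, a ratio of CPM of 1238 with an exact 95% counting interval of 222 to 48931. The edgeR quasi-likelihood test gave a log2 change of 9.86 ± 0.73 (SE), whose size depends on the prior count, with an adjusted p of 0.00138. The call held under each of the 22 alternatives, with adjusted p from 7.92e-13 to 0.0181. Of the 5 copies summed here, Sult2a6 has the largest share of 50-base stretches of its own, 92.7%.

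Sult2a4 was high in AHR KO and low in the other libraries, down to 3 reads in ARNT KO replicate 3. It was at 25.9, 27.5 and 11.3 CPM in AHR KO, against 0.579, 1.13 and 0.456 CPM in AHR Flox. The ARNT Flox libraries had 0.744, 0.626 and 0.754 CPM, and the ARNT KO libraries 1.43, 0.731 and 0.0861 CPM. The lowest AHR KO library was thus above all 9 others. The change was 29.9-fold, with a log2 change of 4.88 ± 0.61 and an adjusted p of 0.0155 by edgeR. The call was lost with limma-voom (adjusted p = 0.0661) and without replicate 1 (0.0743) or 3 (0.0795) of AHR Flox, and without replicate 1 (0.0578) or 2 (0.0585) of AHR KO, while the log2 change stayed between 4.65 and 5.35. Over all alternatives the adjusted p ran from 9.51e-08 to 0.0795.

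Sult2a2 was lower and Sult2a1 had a higher mean in the same libraries, without passing the test. Sult2a2 was at 162, 158 and 68.0 CPM in AHR KO and at 255, 398 and 282 CPM in AHR Flox, so the groups did not overlap. The mean was 2.41-fold lower (log2 change -1.27 ± 0.41), with an unadjusted p of 0.00949 and an adjusted p of 0.234 by edgeR. Sult2a1 was at 531, 531 and 264 CPM in AHR KO and at 209.9, 391 and 208 CPM in AHR Flox, with overlap, a log2 change of 0.71 ± 0.50 and an adjusted p of 0.625. Sult2a5 was at 53.4, 58.8 and 11.1 CPM against 14.1, 21.5 and 10.3 CPM, a log2 change of 1.42 ± 0.81 with an adjusted p of 0.531; AHR KO replicate 3 lay inside the range of AHR Flox. Groups without overlap were found for 3 of the 10 members, against 21.2% of all genes tested: 2 were higher, as in 11.7% of genes, and 1 lower, as in 9.46%.

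The summed Sult2a count showed no detectable difference, while the shares of the copies in it were apart in AHR KO. The sum was at 788, 795 and 363 CPM in AHR KO and at 479, 812 and 499.9 CPM in AHR Flox, or 649 ± 247 against 597 ± 187 CPM (SD, n = 3). In a fit with the copies replaced by their sum, the log2 change was 0.12 ± 0.45 (95% interval -0.86 to 1.10) with an adjusted p of 0.950 by edgeR. The interval is wide, so the data do not show that the totals are alike.

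Within the sum, Sult2a2 made up 53.2%, 49.0% and 56.3% of the reads in the AHR Flox libraries and 20.5%, 19.8% and 18.7% in the AHR KO libraries. Sult2a1 made up 43.8%, 48.2% and 41.5% in AHR Flox and 67.3%, 66.9% and 72.7% in AHR KO. Sult2a4 and Sult2a6 together with Sult2a5 filled the rest: Sult2a4 was at 0.117 ± 0.0241% in AHR Flox and 3.28 ± 0.176%, Sult2a6 at 0.0014 ± 0.00243% and 2.33 ± 0.197%, and Sult2a5 at 2.55 ± 0.455% and 5.74 ± 2.35% (SD, n = 3). The groups did not overlap for any of the 5 shares. A two-sided exact permutation test of each share gave p = 0.10, the smallest that 3 against 3 libraries allow, and 0.25 after adjustment over the 15 shares and comparisons tested. Shares add to 100%, so the 5 are not independent, and their comparison was chosen after seeing the data.

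AHR KO replicate 3 had less than the other AHR KO libraries in sum, 363 CPM against 788 and 795. Its shares of Sult2a2 (18.7%), Sult2a4 (3.11%) and Sult2a6 (2.42%) were close to theirs, its 3.05% of Sult2a5 was lower than their 6.77% and 7.39%, and its 72.7% of Sult2a1 was higher. In ARNT KO, where the sum was lowest in replicate 3, Sult2a1 made up 50%, 44.4% and 37.6% and Sult2a2 45.9%, 51.4% and 61.4%. Leaving out each library in turn, the difference in the Sult2a2 share stayed between -35.1 and -31.4 percentage points and that in the Sult2a1 share between 22.6 and 26.3 points. Sult2a2 shares 41.3% of its 50-base stretches with Sult2a1, and how reads from those stretches were assigned was not tested. The hepatocyte marker sums were 37549 to 41449 CPM in AHR KO and 31917 to 36277 CPM in AHR Flox, and their part in these results was not tested. In RNA from whole liver, fewer cells of a type and less RNA per cell cannot be told apart.

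**Figure D2:**
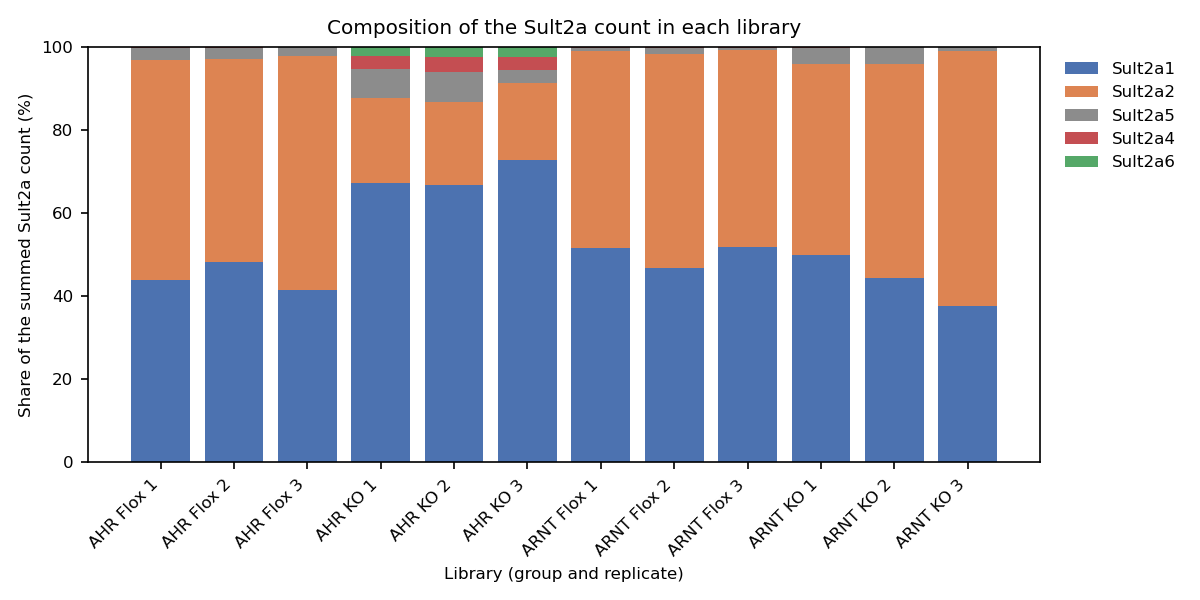
Share of each copy (%, from 0 to 100) in the summed count of the 5 Sult2a genes, 1 bar per library. Sult2a2 fills 18.7 to 20.5% of the bars of AHR KO and 45.9 to 61.4% of the other 9, and the Sult2a4 and Sult2a6 segments are visible in AHR KO.

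Outside the Sult2a cluster, the AHR KO comparison gave no call among the members. Sult1e1, the estrogen sulfotransferase, was at 17.1, 3.30 and 0.878 CPM in AHR KO and at 2.35, 1.3 and 1.33 CPM in AHR Flox. The high mean of AHR KO came from replicate 1, and without it the log2 change was 0.32 in place of 2.08 ± 0.89 (adjusted p = 0.384 by edgeR). Sult3a1 was at 26.7, 19.2 and 93.7 CPM against 28.7, 21.5 and 45.5 CPM, with its highest value in AHR KO replicate 3 (log2 change 0.55 ± 0.80, adjusted p = 0.845). Sult1a1 was 1.19-fold, Sult1d1 1.10-fold and Sult1b1 1.2-fold the level of AHR Flox, and the 95% intervals of their log2 changes were -0.17 to 0.67, -0.37 to 0.64 and -0.17 to 0.69.

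In ARNT KO against ARNT Flox, 0 of the 10 genes passed the test by edgeR, with 0.0573% of all genes called and 2 of 10 members against 5.88% of all genes at an unadjusted p under 0.05. DESeq2, limma-voom and the replicate block gave 0 members as well. Without ARNT KO replicate 3, 1 member was called, Sult3a1, in a fit that called 1.37% of all genes. The groups did not overlap for 1 member, Sult1a1, which was lower in each ARNT KO library, against 10.8% of all genes in either direction and 4.9% lower. Its levels were 487, 535 and 516 CPM in ARNT KO and 539, 654 and 749 CPM in ARNT Flox, a log2 change of -0.34 ± 0.19 with an adjusted p of 0.894.

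The ARNT KO libraries did not move as 1 group. The Sult2a sum was at 833, 629 and 194 CPM, against 398, 489 and 531 CPM in ARNT Flox: replicates 1 and 2 lay above all 3 controls and replicate 3 below them. The log2 change was 0.22 ± 0.45 with all libraries and 0.63 ± 0.32 without replicate 3 (adjusted p = 1.00 and 0.349 by edgeR). Sult2a5 had the same layout, at 32.4, 25.7 and 1.81 CPM against 3.16, 8.11 and 3.31 CPM (log2 change 2.03 ± 0.86, unadjusted p = 0.0374, adjusted p = 0.802; without replicate 3, 2.57 ± 0.61 and 0.0708). Sult1e1 was below all 3 controls in replicates 1 and 2 and within their range in replicate 3, at 4.53, 4.89 and 11.4 CPM against 5.57, 10.96 and 19.8 CPM. Sult2a1, at 416, 279 and 73.0 CPM against 206, 229 and 275 CPM, had the layout of the sum. So did Sult2a2, at 382, 324 and 119 CPM against 188, 251 and 252 CPM. Some marker sums, but not all, were also apart in replicate 3. In replicate 3 the cholangiocyte markers summed to 334 CPM against 65.2 and 103 CPM in replicates 1 and 2, Kupffer cell markers to 872 CPM against 528 and 560.2 CPM, stellate cell markers to 647 CPM against 336 and 459 CPM, and hepatocyte markers to 26431 CPM against 36308 and 36400 CPM. Endothelial markers summed to 367 CPM in replicate 3 against 342 and 378 CPM, and lymphocyte markers to 11.5 CPM against 10.6 and 12.6 CPM. Those 2 sums lay between the sums of replicates 1 and 2. The part of these cell types in the ARNT KO values was not tested.

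Sult3a1, the amine sulfotransferase, is at chr10:33857721-33879532 on the plus strand. Its level was 19.9, 9.91 and 0.861 CPM in ARNT KO and 1.46, 0.25 and 1.13 CPM in ARNT Flox, so 2 ARNT KO libraries were above all controls and the third within their range. The ratio of means was 10.8 and the log2 change 3.43 ± 1.04, with an unadjusted p of 0.00688 and an adjusted p of 0.588. Without ARNT KO replicate 3 it was 3.98 ± 0.79 with an adjusted p of 0.0365, and over all alternatives the adjusted p ran from 0.0365 to 1.00.

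Sult3a1 was also apart between the control lines, without passing the test. Its 3 ARNT Flox values lay below the 28.7, 21.5 and 45.5 CPM of AHR Flox, with means of 0.947 ± 0.625 and 31.9 ± 12.3 CPM (SD, n = 3). The level was 33.7-fold lower (log2 change -5.07 ± 1.05), with an unadjusted p of 0.000494 and an adjusted p of 0.0733 by edgeR. Without ARNT KO replicate 3, which is in neither group but enters the shared estimate of the spread, the adjusted p was 0.00288, in a fit that called 10.9% of all genes. Over all alternatives the log2 change was -5.83 to -4.61 and the adjusted p 0.000149 to 0.276. The ARNT KO comparison and this one share the ARNT Flox libraries, so a low level there enters both.

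In ARNT Flox against AHR Flox, 0 of 10 members were called, with 0.329% of all genes called by edgeR, and 2 of 10 had an unadjusted p under 0.05 against 19.9% of all genes. DESeq2 called 2 members among 572 genes called, where edgeR called 46 genes. The groups did not overlap for 4 members, against 35.8% of all genes, which is near the members' share: 1 was higher (18.1% of genes) and 3 lower (17.7%). Sult1e1 was the higher one, at 5.57, 10.96 and 19.8 CPM in ARNT Flox against 2.35, 1.3 and 1.33 CPM (7.30-fold, log2 change 2.85 ± 0.89, unadjusted p = 0.00826, adjusted p = 0.149). Sult2a5, Sult2a2 and Sult3a1 were the lower ones. Sult2a5 was 3.15-fold lower (log2 change -1.65 ± 0.86, adjusted p = 0.305) and Sult2a2 1.35-fold lower (adjusted p = 0.562). The sum of the Sult2a copies had a log2 change of -0.34 ± 0.45 with an adjusted p of 0.697. It was -0.06 without AHR Flox replicate 2, and -0.70 (adjusted p = 0.395) with Sult2a3, Sult2a7 and Sult2a8 added to the sum. The Kupffer cell markers, 9 of 10 in the table, summed to 631 to 655 CPM in ARNT Flox and 406 to 606 CPM in AHR Flox. Stellate cell markers summed to 433 to 530 CPM against 296 to 405 CPM, endothelial markers to 347 to 402 CPM against 303 to 344 CPM, and lymphocyte markers to 9.59 to 14.0 CPM against 6.29 to 8.92 CPM, while hepatocyte markers summed to 26803 to 31922 CPM against 31917 to 36277 CPM. The part of these cell types in the values was not tested.

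**Figure D3:**
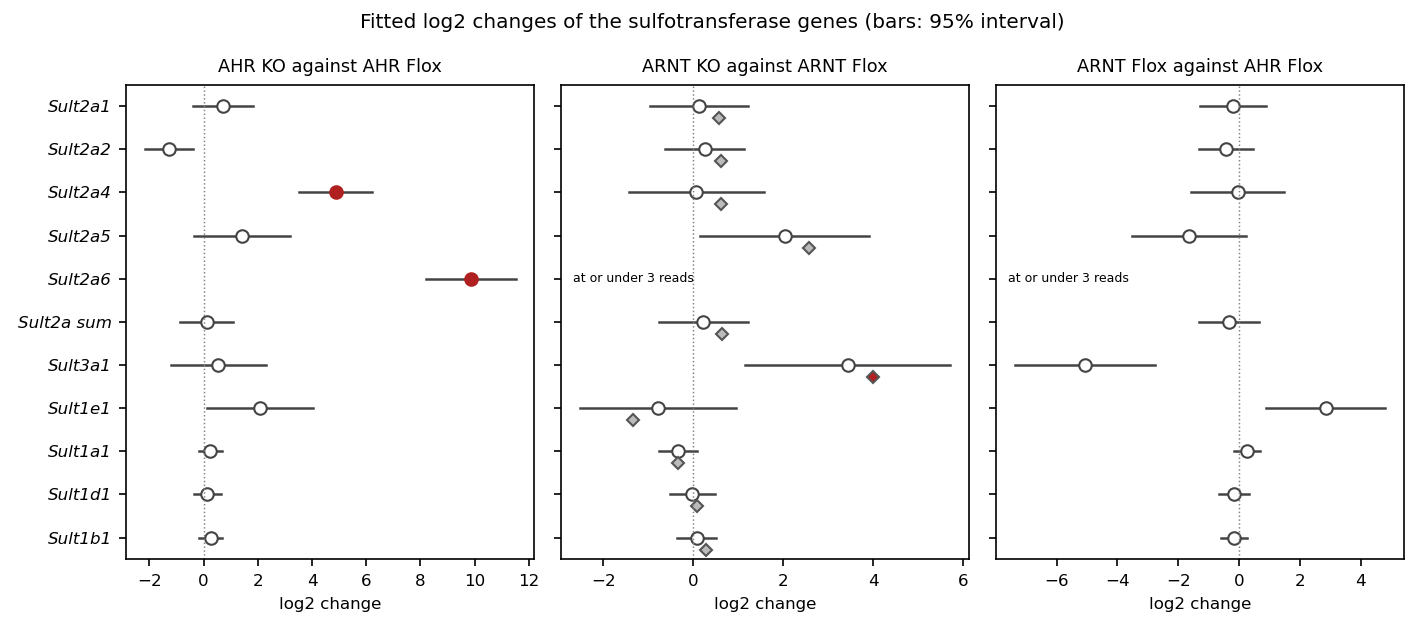
Fitted log2 change of each gene in the 3 comparisons of groups; circles with bars give the estimate and its 95% interval, filled red where the adjusted p is under 0.05, and diamonds in the middle panel the estimate without ARNT KO replicate 3. Sult2a4 and Sult2a6 pass in AHR KO at 4.88 and 9.86, and Sult3a1 passes in ARNT KO without that library at 3.98. Sult2a6 has a point in the AHR KO panel only.

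The difference between the ARNT and AHR effects was tested directly. By edgeR 0 of 10 members passed, with 0.043% of all genes called and 3 of 10 members against 9.51% of all genes at an unadjusted p under 0.05. Sult2a4 had the smallest p among the members with a fold to compare, a difference of -4.81 ± 0.92 with an unadjusted p of 0.000245 and an adjusted p of 0.131. Without ARNT KO replicate 3 it was -4.25 ± 0.70 with an adjusted p of 0.018, in a fit that called 1.38% of all genes, and DESeq2 and limma-voom with sample quality weights called 2 members each, among 148 and 238 genes called against 6 by edgeR. Sult2a2 differed by 1.53 ± 0.57 (adjusted p = 0.429) and Sult1e1 by -2.87 ± 1.19 (adjusted p = 0.479). Sult2a6 has no fold in ARNT KO, where both groups were at or under 3 reads per library.

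Upstream sequence from RefSeq (GRCm38.p6), matched by symbol, was at hand for 8 of the 10 genes. It is shown for the 2 genes that rose together in AHR KO and for Sult3a1. Sult2a4 and Sult2a6 could be aligned over 209 bases that lie before their annotated starts, at chr7:13989630-13989838 and chr7:14254872-14255085 on the minus strand, with 84.2% identity. Capitals mark the 33 bases that differ and those with no partner. The Sult3a1 stretch is chr10:33857472-33857720 on the plus strand, and its capitals mark the 1 match to TTCNNNGAA, the spaced palindrome that STAT5 binds.
Sult2a4: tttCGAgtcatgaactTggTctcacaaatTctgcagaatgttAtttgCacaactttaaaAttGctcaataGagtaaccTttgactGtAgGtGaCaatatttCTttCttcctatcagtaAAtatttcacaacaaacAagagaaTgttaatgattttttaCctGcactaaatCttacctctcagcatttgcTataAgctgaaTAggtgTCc
Sult2a6: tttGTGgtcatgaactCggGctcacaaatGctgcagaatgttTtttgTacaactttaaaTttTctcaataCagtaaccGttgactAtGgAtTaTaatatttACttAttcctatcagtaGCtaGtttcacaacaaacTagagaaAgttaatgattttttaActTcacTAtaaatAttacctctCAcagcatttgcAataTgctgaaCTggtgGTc
Sult3a1: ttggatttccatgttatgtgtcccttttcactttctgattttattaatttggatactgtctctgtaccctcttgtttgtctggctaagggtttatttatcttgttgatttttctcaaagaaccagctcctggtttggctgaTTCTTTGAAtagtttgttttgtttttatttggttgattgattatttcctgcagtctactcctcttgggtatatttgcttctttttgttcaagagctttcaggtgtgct
The similarity is not particular to this pair: in windows of 300 bases around the start, Sult2a4 was identical to Sult2a6 at 85.0% of 260 aligned bases, to Sult2a5 at 92.2% of 219 and to Sult2a3, another copy of the cluster, at 93.0% of 242.

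A set of 4 short motifs was searched on both strands of these windows, which hold 250 bases before and 50 after the start. GCGTG, the core that AHR with ARNT binds, was in 32.4% of the 32851 RefSeq promoter windows of the genome, ACGTG, the core of hypoxia-inducible factors, in 19.6%, AGGTCA, bound by nuclear receptors, in 16.3% and TTCNNNGAA in 8.30%. No motif of the set is contained in another. Windows of Sult2a4, Sult2a5, Sult2a6 and Sult1a1 held none of the 4 motifs. Sult1d1 held GCGTG at -47, Sult1e1 held AGGTCA at -113, and Sult3a1 held TTCNNNGAA at -109. Sult1b1 has 2 annotated starts: the window of the upstream one held AGGTCA at -123 and 38, and that of the other held GCGTG at -196. A match is a stretch of letters and not a measured site, and these windows leave out distant sequence.

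Along the cluster, the copies that rose in AHR KO were not next to each other. Between Sult2a4 and Sult2a6 lies Sult2a3, at 189, 134 and 41.5 CPM in AHR KO against 52.0, 118 and 56.3 CPM in AHR Flox (log2 change 0.69 ± 0.67, adjusted p = 0.745). Sult2a2 and Sult2a1, with changes of opposite sign, are neighbours on opposite strands. Sult2a7, at the far end, was at 39.9, 12.7 and 11.8 CPM against 6.03, 3.28 and 7.87 CPM, higher in each AHR KO library (log2 change 1.91 ± 0.71, adjusted p = 0.307). Of the genes within 500 kb of the cluster other than the members, 7 were tested and 0 were called in any of the 4 comparisons by edgeR. At an unadjusted p under 0.05 were 2 in AHR KO, 3 in ARNT KO, 1 for the difference between effects and 3 between the control lines. Of all genes 11.9%, 5.88%, 9.51% and 19.9% were, in that order. Sult1b1, Sult1d1 and Sult1e1 lie within 78.3 kb on chromosome 5, where 4 further genes were tested with 0 called and 0 at an unadjusted p under 0.05, and Sult1a1 lies at chr7:126672865-126676432. Near Sult1a1 43 genes and near Sult3a1 11 genes were tested, with 0 called. In the same order of comparisons, 3, 3, 4 and 7 of the 43 had an unadjusted p under 0.05. Of the 11 near Sult3a1, 2, 2, 4 and 5 did.

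**Figure D4:**
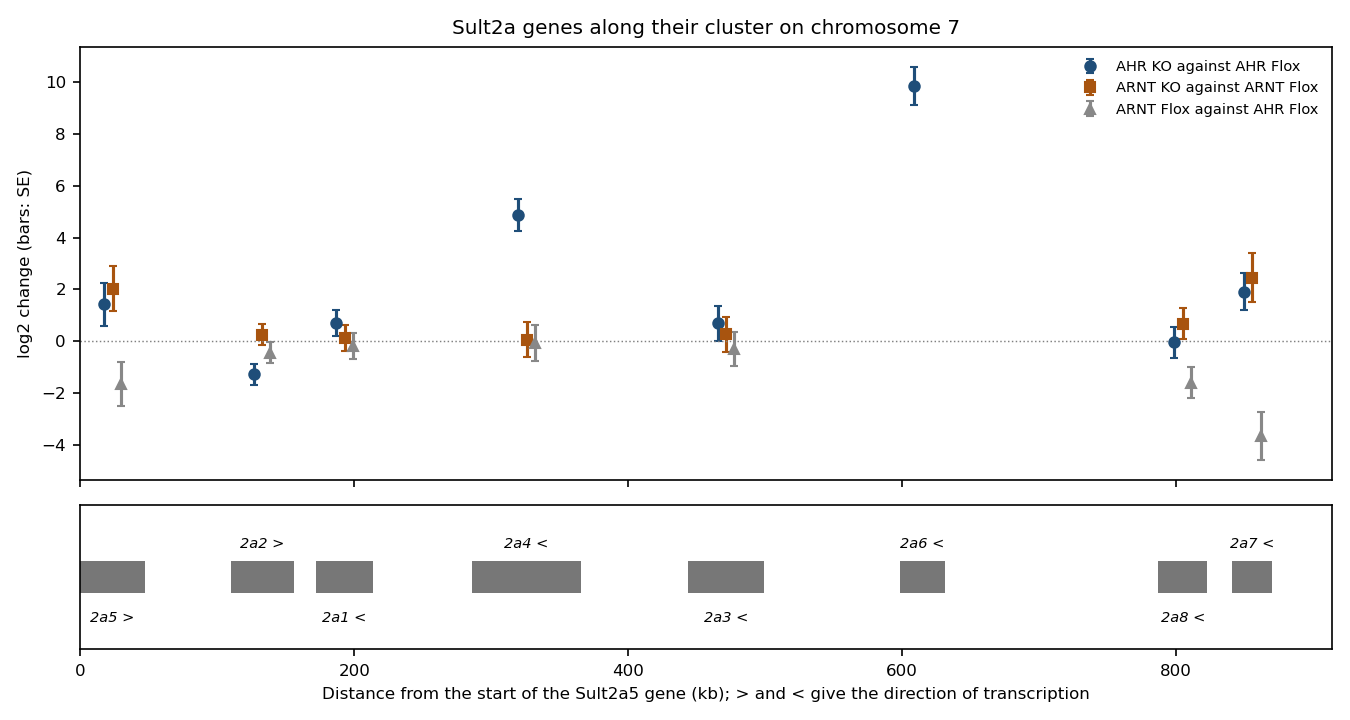
Log2 changes with SE (upper panel) of the 8 Sult2a genes in 3 comparisons, placed by distance in kb from the start of Sult2a5, with the gene bodies and their direction below. Sult2a6 has a point for AHR KO against AHR Flox only. In AHR KO against AHR Flox the points of Sult2a4 and Sult2a6 stand at 4.88 and 9.86 with Sult2a3 at 0.69 between them, and in ARNT Flox against AHR Flox Sult2a7 stands lowest at -3.66.

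Of 25 other sulfotransferase genes listed, 18 were tested, and 0 passed in any comparison by edgeR. In ARNT Flox against AHR Flox 7 of the 18 had an unadjusted p under 0.05, against 19.9% of all genes. Without ARNT KO replicate 3, 7 were called between these lines, 3 higher and 4 lower, in a fit that called 10.9% of all genes. In that fit 1 was called lower in ARNT KO and 1 lower for the difference between effects. Of all genes 1.37% and 1.38% were called there. Gm4794, the table's symbol for Sult3a2, is identical to Sult3a1 at 90.9% of its coding bases. It was at 1.12, 0.581 and 2.57 CPM in AHR Flox, and the 3 ARNT Flox libraries held 1 read in all, against 112 reads in AHR Flox. The pooled CPM was 121-fold higher in AHR Flox, with an exact 95% counting interval of 21.3 to 4820.4 and an adjusted p of 0.108. Sult2a7 was at 0.417, 0.47 and 0.461 CPM in ARNT Flox, 12.8-fold below AHR Flox (log2 change -3.66 ± 0.92, adjusted p = 0.108). Sult2a8, listed as 2810007J24Rik and known as a bile acid sulfotransferase, was at 148, 80.0 and 182 CPM in ARNT Flox and 375, 397 and 470.2 CPM in AHR Flox (log2 change -1.60 ± 0.60, adjusted p = 0.194). In ARNT KO, Sult2a8 was at 340.1, 283 and 33.7 CPM and Sult2a7 at 4.22, 3.05 and 0.144 CPM, with replicate 3 lowest in each. Without that library the adjusted p for the control lines were 0.019 for Gm4794, 0.00626 for Sult2a7 and 0.00374 for Sult2a8, and the fourth lower call was Sult1c2 (0.0355), at 14.7, 14.0 and 14.9 CPM in ARNT Flox against 18.6, 17.5 and 20.2 CPM. The 3 higher calls were Sult4a1 (0.0288), Gal3st1 (0.000426), which sulfonates glycolipids, and Chst11 (0.0492), which sulfonates chondroitin. Sult4a1 was near the limit of counting, at 0.476, 0.47 and 0.419 CPM in ARNT Flox and with 0, 4 and 0 reads in AHR Flox (adjusted p = 0.197 with all libraries). Sult5a1 was lower in each ARNT KO library, at 5.87, 3.65 and 1.75 CPM against 23.1, 8.08 and 19.0 CPM (log2 change -2.16 ± 0.53, adjusted p = 0.426). Sult1c1 had a count of 0 in all 12 libraries.

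Genes that supply sulfate and the donor PAPS had few calls in the fit with all libraries. Of 22 genes listed, 20 were in the table and 19 were tested. In AHR KO 0 and in ARNT KO 0 passed by edgeR, with 3 and 2 at an unadjusted p under 0.05 (11.9% and 5.88% of all genes). The list's median log2 changes were -0.05 and 0.07 against 0.01 for all genes in both comparisons. In ARNT Flox against AHR Flox 1 of 19 was called, Bpnt1, with 0.329% of all genes called. At an unadjusted p under 0.05 were 6 of 19, against 19.9% of all genes. Bpnt1, which breaks down the PAP left by sulfonation, was at 41.5, 42.9 and 40.1 CPM against 55.04, 55.8 and 61.7 CPM (log2 change -0.47 ± 0.08, adjusted p = 0.0307 by edgeR). That call was lost without any 1 of the 6 libraries compared (adjusted p from 0.0719 to 0.162), with the log2 change between -0.51 and -0.42 over all alternatives. Slc26a2, a sulfate transporter, had a log2 change of -0.92 ± 0.21 in AHR KO with an adjusted p of 0.101. Papss2, which makes PAPS, had log2 changes of 0.24 in AHR KO and -0.09 in ARNT KO. Without ARNT KO replicate 3, 1 of the 19 was called higher in ARNT KO and 6 were called lower between the control lines. Of all genes 1.37% and 10.9% were called there. In AHR KO 0 of the 19 were called in that fit.

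Among transcription factors and receptors that are known to act on sulfotransferase genes, 28 of 29 listed were tested and 1 was called in each knockout: Esr1, the estrogen receptor alpha. It was at 471, 473 and 468 CPM in AHR KO against 34.9, 37.0 and 30.9 CPM in AHR Flox (log2 change 3.78 ± 0.16, adjusted p = 8.24e-07). In ARNT KO it was at 216, 199 and 307 CPM against 42.4, 36.0 and 38.6 CPM (log2 change 2.63 ± 0.15, adjusted p = 2.67e-05). Esr1 was high in all 6 knockout libraries, with the higher values in AHR KO, and Sult2a4 and Sult2a6 were high in the 3 of AHR KO. Any part of Esr1 in the levels of these genes was not tested. Of all genes 0.0788% were called in AHR KO and 0.0573% in ARNT KO. Without ARNT KO replicate 3, 1 regulator was called higher in AHR KO, 2 in ARNT KO, and 5 were called lower between the control lines. In that fit 0.966%, 1.37% and 10.9% of all genes were called. Of 10 tested sulfatase genes 1 was called in that fit, higher between the control lines. With all libraries 0 of them were called in any comparison. In AHR KO, ARNT KO, the difference between effects and the control lines, 3, 2, 2 and 2 had an unadjusted p under 0.05. Of the 18 other sulfotransferases 2, 3, 2 and 7 did, against 11.9%, 5.88%, 9.51% and 19.9% of all genes. The median log2 changes in AHR KO of the regulators, the sulfatases and the other sulfotransferases were -0.01, -0.08 and -0.03.

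The genes whose log2 CPM was most like the Sult2a sum across the 12 libraries, outside the members and at a mean of at least 1 CPM, were Sult2a3 (Pearson r = 0.97), Shmt1 (0.96), Aldh4a1 (0.949), Phf19 (0.948) and Mbtd1 (0.947). Ranked by Spearman's rho, Papss2 came first at 0.951, with r = 0.932. Without ARNT KO replicates 1 and 3, which lie farthest from the median of the sum, r was 0.931 for Sult2a3, 0.898 for Shmt1 and 0.82 for Papss2. Most like Sult3a1 were BC048355 (r = 0.964), Lmf1 (0.961), Apon (0.952), Calr (0.952) and Smyd1 (0.95). By Spearman's rho the first 5 included Apon at 0.972 and 2810007J24Rik, the symbol listed for Sult2a8, at 0.958. Only 1 of the 5 genes by r was among the 5 by rho, for Sult3a1 as for the Sult2a sum. Without ARNT Flox replicate 2 and ARNT KO replicate 3, r was 0.95 for BC048355 and 0.982 for Calr. These values describe 12 libraries in 4 groups that share depth and genotype, and the genes were picked for them, so they carry no p.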

How the data were processed

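RNA from the livers of 12 mice was extracted with Trizol, selected for poly-A and made into NEBNext Ultra II libraries, per the labels' protocols. The authors' deposited table gives raw counts per gene symbol, made with mm10, STAR (2.5.4b, 2.6.0c), DESeq2 1.20.0, R 3.5.1 and bcl2fastq 2.20 among the tools in the submitters' processing notes. No label or note gives the counting tool, its strand setting or its annotation, so reads of overlapping or near-identical genes may be split or lost.

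Counts were tested with edgeR 4.0.16 in R 4.3.3: TMM scaling (factors 0.942 to 1.19), genes kept by filterByExpr (minimum count 10, minimum total 15), 1 mean per group over all 12 libraries, quasi-likelihood F tests (two-sided) and Benjamini-Hochberg adjustment over the 13968 genes tested, with a call at an adjusted p under 0.05. The common biological coefficient of variation was 17.5%. The Sult2a sum was tested in a second fit where 1 summed row replaced the 5 copies. CPM are counts on TMM-scaled totals. In an SE or interval, the spread is that between the 3 mice of a group, pooled over groups, and counting intervals cover counting error only. Shares were compared by exact permutation over libraries. No libraries agreed within counting noise, so none were merged.

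The genes named are the members, the other Sult symbols, Ahr and Arnt, the called genes of each list (or else those with the smallest p) and the 5 genes most like the Sult2a sum and Sult3a1, and Gm4794, 2810007J24Rik and Papss2 are also named for their role. Chst11 was named after its values were seen. A gene that the rule names is not reported here. The members and lists were chosen with earlier results of these data known, so no list is independent evidence. Sequences were taken from GRCm38.p6 with GENCODE and RefSeq models and aligned with mafft 7.526. Alternatives covered scaling, filters, DESeq2 1.42.0, limma-voom (limma 3.58.1), fewer groups, a replicate block and each library left out. The comparison of shares, leaving out ARNT KO replicate 3 beside the results, and Sult2a8 in the sum were chosen after seeing the data. The tests were tried on simulated data first.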

Additional observations from a re-analysis of the deposited data

How the results depend on the processing

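The number of Sult genes called in AHR KO was 2, and it was 1 with limma-voom, 3 with DESeq2 and 1 to 2 with each library left out. Over all settings 5 to 359 genes were called in all in this comparison, against 11 in the main fit. In ARNT KO it was 0 to 1 with each library left out. For the difference between the ARNT and AHR effects it was 2 with DESeq2 (148 genes called in all, against 6), 2 with limma-voom with sample quality weights (238 genes) and 0 to 1 with each library left out. For ARNT Flox against AHR Flox it was 2 with DESeq2 (572 genes called in all, against 46), 1 with sample quality weights (2395 genes), 3 in a fit of only these groups (1615 genes) and 0 to 1 with each library left out. Sult2a6 in AHR KO passed under all 22 alternatives; Sult2a2 in AHR KO passed with DESeq2 alone (adjusted p = 0.0409).

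Small log2 changes took the other sign under some settings, and the cause was not tested. With limma-voom the ARNT KO values were -0.0026 for the Sult2a sum, -0.20 for Sult2a1 and -0.64 for Sult2a4, the difference between effects was -0.0848 for the sum, and Sult2a4 was at 0.046 between the control lines; Papss2 in ARNT KO was at 0.024 with sample quality weights. With each library left out in turn, the sum ran from -0.062 to 0.40 in AHR KO, -0.20 to 0.63 in ARNT KO and -0.31 to 0.52 for the difference between effects. In AHR KO, Sult3a1 ran from -0.48 to 0.91. In ARNT KO, Sult2a1 ran from -0.42 to 0.56, Sult2a2 from -0.056 to 0.62, Sult2a4 from -0.82 to 0.62, Sult1d1 from -0.18 to 0.19, Sult1b1 from -0.0604 to 0.28 and Papss2 from -0.39 to 0.20. For the difference between effects, Sult1d1 ran from -0.36 to 0.052 and Sult1b1 from -0.32 to 0.021. Between the control lines, Sult2a1 ran from -0.35 to 0.17, Sult2a4 from -0.28 to 0.43 and Sult1d1 from -0.38 to 0.031.

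The labels tie the replicate numbers to no litter, batch or day, so the mice were not treated as paired. Deviations of same-numbered libraries correlated at 0.018 to 0.149 between the AHR groups and at -0.0310 to 0.00018 between the ARNT groups. Between the control lines they correlated at 0.0989 to 0.332. Libraries with different numbers were not compared in this way, so these values cannot tell whether the numbers pair the mice. With a replicate block the Sult2a sum differed between effects by -0.0237, Sult2a1 and Sult2a4 in ARNT KO were at -0.13 and -0.032, Bpnt1 had an adjusted p of 0.0530, and no call of a Sult gene changed. With 3 libraries a group, changes that lie within the intervals given could have been missed.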

Other observations

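Sex-biased liver genes, the group to which the Sult2a genes and Sult3a1 are usually assigned, gave 0 calls by edgeR in each of the 4 comparisons. Of 29 tested female-predominant genes, 8 had an unadjusted p under 0.05 in AHR KO, where 11.9% of all genes did, with a median log2 change of 0.29 against 0.01 for all genes. Ntrk2, one of them, had a log2 change of -2.26 ± 0.46 (adjusted p = 0.0871). Of 22 tested male-predominant genes, 8 had an unadjusted p under 0.05 in ARNT Flox against AHR Flox, where 19.9% of all genes did, with a median of -0.48. Cyp2d9, a male-predominant steroid hydroxylase, had log2 changes of 3.16 ± 0.52 in ARNT KO (adjusted p = 0.115) and -2.27 ± 0.52 in ARNT Flox against AHR Flox (adjusted p = 0.0842), 2 comparisons that share the ARNT Flox libraries. Without ARNT KO replicate 3, 1 female-predominant gene rose and 1 fell in AHR KO, where 0.966% of all genes were called. There 0 male-predominant genes rose and 1 fell. In ARNT KO in that fit, 1 female-predominant gene rose and 0 fell, and 3 male-predominant genes rose and 1 fell, where 1.37% were called. In ARNT Flox against AHR Flox, 2 female-predominant genes rose and 5 fell, and 1 male-predominant gene rose and 6 fell, where 10.9% were called.

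Genes induced by the xenobiotic receptors CAR and PXR also gave 0 calls by edgeR, with 6 of 30 at an unadjusted p under 0.05 in AHR KO (11.9% of all genes), 6 in ARNT KO (5.88%) and 11 in ARNT Flox against AHR Flox (19.9%). Cyp2c50 had the smallest p there, with a log2 change of -2.28 ± 0.48 and an adjusted p of 0.0773. Of 24 bile acid genes 0 were called in the fit with all libraries. At an unadjusted p under 0.05 were 3 in AHR KO (11.9% of all genes), 0 in ARNT KO (5.88%) and 6 between the control lines (19.9%). Without ARNT KO replicate 3, 8 of the 30 CAR and PXR genes were called higher and 4 lower between the control lines. In that fit 1 was called higher and 3 lower in ARNT KO, and 0 and 1 in AHR KO. Of the 24 bile acid genes 2 were called higher and 4 lower between the control lines. In ARNT KO 1 of them was called higher and 1 lower, and in AHR KO 1 and 0. Of all genes 10.9% were called between the control lines, 1.37% in ARNT KO and 0.966% in AHR KO.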
